A study of Mus musculus with 20 samples.

Results

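The 10 genes described here encode A20 (Tnfaip3) and its binding partners, the TRAF adaptors, the cellular inhibitor of apoptosis proteins and the NF-kB-inducing kinase NIK. They were chosen by symbol, from knowledge of the pathway and with earlier results of these data known. They are Tnfaip3, Tnip1, Tnip2, Traf1, Traf2, Traf3, Traf5, Birc2, Birc3 and Map3k14, 10 of the 41115 genes in the count tables. Counts over the group therefore describe these genes and are no independent test. All 10 passed the filter on low counts (1 CPM, the usual read count scaled to library depth, in 3 or more libraries), as did 12042 genes in all.

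The study followed messenger RNA of mouse cells, labelled spleen, in poly-A libraries at 0, 15 and 30 min and at 1, 2, 3, 6, 12, 24 and 48 h. The stimulated arm received lipopolysaccharide (LPS), which Toll-like receptor 4 senses as a bacterial product, interleukin 4 (IL4) and transforming growth factor beta (TGFb). The untreated arm received none of them. Per the design text each arm came from 1 mouse, which gave 10 stimulated and 10 untreated libraries with 1 library per arm and time. The sources used here give no strain, genotype or age. The 0 min libraries carry the arm's label.

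NF-kB transcription factors are held inactive in resting cells and are released by kinase cascades that Toll-like receptors and the tumour necrosis factor receptor family switch on. Ubiquitin chains are the scaffold of these cascades. TRAF adaptors and the cellular inhibitor of apoptosis proteins build such chains at receptors, while A20 edits or caps them and so limits the signal. In resting B cells, TRAF3, TRAF2 and the inhibitor of apoptosis proteins keep NIK, the kinase of the non-canonical branch, at low protein levels by directing its degradation. Receptors such as CD40 and the BAFF receptor relieve this control.

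Sequence at the start sites is shown first because several genes of this group are textbook NF-kB targets and the members differed in their courses. RefSeq promoters on GRCm38.p6, each 300 bases long from 250 bases before to 50 after an annotated start, were searched for the kB consensus, the binding motif of NF-kB, which reads as itself on the opposite strand. Capitals mark the matches. The Tnfaip3 promoter, at chr10:19015361-19015660 on the minus strand, held 2 matches, GGGACACCCC beginning 125 bases and GGAAATCCCC beginning 12 bases before the start. The Tnip1 promoter, at chr11:54962891-54963190 on the minus strand, held 3 matches that overlap in 1 stretch, beginning 58, 57 and 56 bases before the start. The Traf1 promoter, at chr2:34961723-34962022 on the minus strand, held none.
Tnfaip3: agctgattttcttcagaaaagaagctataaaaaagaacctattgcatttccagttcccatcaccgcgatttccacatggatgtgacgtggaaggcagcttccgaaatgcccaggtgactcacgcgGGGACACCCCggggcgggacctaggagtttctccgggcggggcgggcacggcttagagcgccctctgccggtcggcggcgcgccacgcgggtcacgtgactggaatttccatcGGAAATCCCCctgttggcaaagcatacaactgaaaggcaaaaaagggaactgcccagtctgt
Tnip1: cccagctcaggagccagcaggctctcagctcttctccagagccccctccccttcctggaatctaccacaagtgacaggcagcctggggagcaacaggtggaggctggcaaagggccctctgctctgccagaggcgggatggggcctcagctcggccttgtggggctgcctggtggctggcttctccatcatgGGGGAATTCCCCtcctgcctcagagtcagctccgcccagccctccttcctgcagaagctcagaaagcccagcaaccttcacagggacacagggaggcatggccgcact
Traf1: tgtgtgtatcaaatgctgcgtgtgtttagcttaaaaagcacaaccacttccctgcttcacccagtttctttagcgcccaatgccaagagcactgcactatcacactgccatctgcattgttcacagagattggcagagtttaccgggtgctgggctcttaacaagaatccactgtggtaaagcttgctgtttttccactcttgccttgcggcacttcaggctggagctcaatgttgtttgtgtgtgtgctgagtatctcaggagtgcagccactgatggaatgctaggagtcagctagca
Tnip2 had 1 match, GGAAAATTCC, that begins 240 bases before its start, and Traf3 had 1, GGGGATTTCC, that begins 10 bases before. No match lay in the window of Traf2, Traf5, Birc2, Birc3 or Map3k14, nor in a second promoter annotated for Tnfaip3. In all, 4 of the 10 members had a match, against 3671 of 32851 RefSeq promoters of the same length (11.2%) and 1371 of the 8715 tested genes with a promoter in the table (15.7%). A match describes letters and is not a measured binding site, and a window without one says nothing of binding elsewhere.

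Library totals ran from 36873155 to 60918651 counts, so that 3 counts, taken as the floor of detection, were at most 0.0814 CPM. The lowest member value, 7.27 CPM, lay far above this floor. All 10 markers of B cells on the list used were detected in every library. The T cell marker Cd3e (at most 0.224 CPM), the macrophage markers Cd14 (at most 0.09 CPM) and Lyz2 (at most 0.0757 CPM) and the neutrophil marker S100a8 (0 CPM) were at or near 0 in all 20 libraries, although the label is spleen. Below 1 CPM in every library were 6 of 10 T cell, 5 of 8 macrophage and monocyte, 7 of 7 neutrophil and 6 of 6 NK cell markers. Others of these lists were present, with Cd5 at 31.9 to 70.4, Lck at 6.42 to 20.9, Csf1r at 13.4 or more, Cd68 at 8.74 to 21.9 and Emr1 at 0.697 to 35.5 CPM. Values below are CPM after TMM scaling, a correction of library totals for composition. The 9 times after 0 min were tested in 3 phases, with the arms paired by time. The early phase held 15 min, 30 min and 1 h, the middle phase 2, 3 and 6 h, and the late phase 12, 24 and 48 h. Times stand in for replicates here, so a p-value measures the spread of a difference between times, not between animals. With 1 animal per arm, an effect of the animal cannot be told apart from one of the cocktail. Sequencing lanes were split largely by arm, and with time as a factor no difference within a phase can be fitted beside lane.

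A20 messenger RNA was higher within the first hour of stimulation and showed the sharpest single peak of the group. Tnfaip3 (ENSMUSG00000019850, chr10:19000910-19015657 on GRCm38) encodes the ubiquitin-editing enzyme A20, a feedback inhibitor of NF-kB. In the stimulated arm its level was 83.8 CPM at 0 min, 78.8 at 15 min, 109 at 30 min, 412 at 1 h, 200.3 at 2 h, 228 at 3 h, 227 at 6 h, 225 at 12 h, 253 at 24 h and 249 at 48 h. In the untreated arm it was 65.8, 58.4, 41.5, 52.5, 91.9, 117, 117, 143, 93.8 and 156 CPM at the same times. The 1 h stimulated library was the highest of all 20, at 4.92 times the 0 min level of its arm, and after 0 min every stimulated value exceeded the untreated value of the same time.

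**Figure D1:**
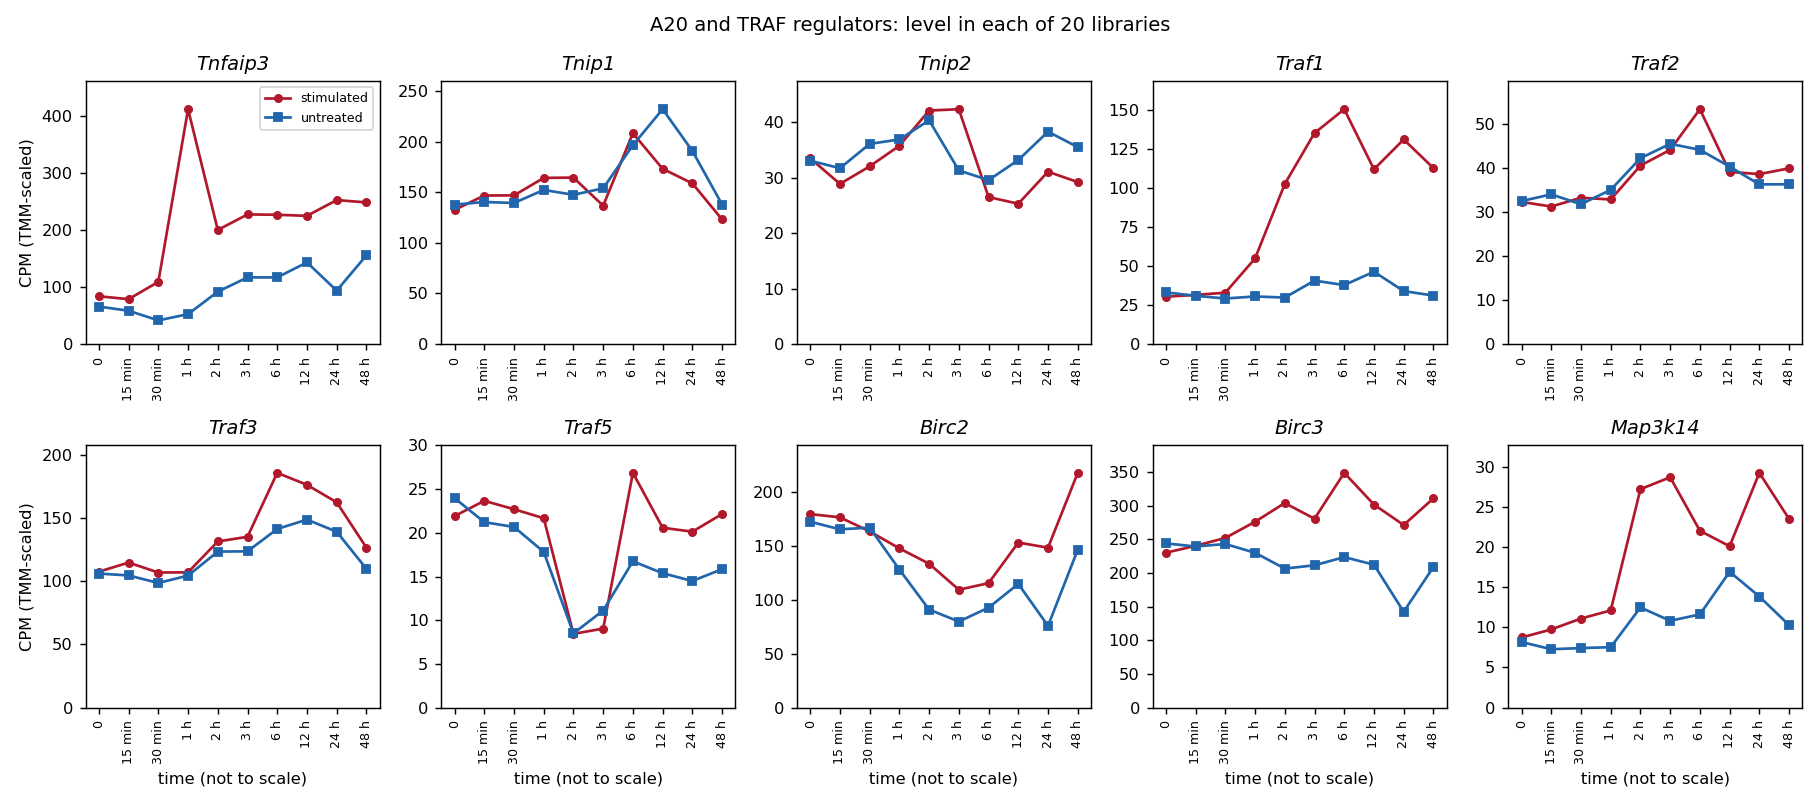
TMM-scaled CPM (linear axis) of each of the 10 genes against time, with the 10 times evenly spaced; points are single libraries of the stimulated and of the untreated arm. Tnfaip3 reached 412 CPM at 1 h under stimulation, and stimulated Traf1 lay above all untreated values from 1 h on. The arms of Map3k14, Tnfaip3 and Traf1 did not overlap in any of the 3 phases, and Traf5 lay at about the same low level in both arms at 2 and 3 h.

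In the early phase Tnfaip3 was higher under stimulation by a log2 fold change of 1.58 ± 0.36 (SE, 3 time pairs), or 2.98-fold, with an edgeR quasi-likelihood adjusted p of 0.0488. The difference was 0.99 ± 0.33 in the middle phase (adjusted p = 0.0576) and 0.90 ± 0.34 in the late phase (adjusted p = 0.0558), and these missed the threshold of 0.05 although the arms did not overlap in either phase. With no filter on low counts both passed, with nearly the same differences (0.99 and 0.93) but an SE of only 0.07 in each. That SE understates the spread between times, as the late log2 ratios ran from 0.65 at 12 h to 1.43 at 24 h. These passes are thus not taken as calls, and why the SE shrank was not tested. The early call was lost without the 30 min pair (1.69 ± 0.48, adjusted p = 0.249) and without the 1 h pair (0.89 ± 0.22, adjusted p = 0.115). At 0 min, Tnfaip3 was already 0.35 higher in the stimulated arm on the log2 scale, above the 95th percentile of all tested genes (0.275). Relative to the 0 min pair the early difference was 1.25 ± 0.68, and the call was also lost.

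The untreated cells gained Tnfaip3 as well. From the early to the late phase the untreated level rose by a log2 fold change of 1.38 ± 0.42 (2.59-fold, edgeR adjusted p = 0.0168), from a mean of 50.8 to 130.9 ± 32.8 CPM (SD, n = 3 times). Without the untreated 30 min library the rise was 1.26 ± 0.49, with an adjusted p of 0.0669. In the stimulated arm the same comparison gave 0.30 ± 0.41 (adjusted p = 0.548), with the 1 h value in its early group. Without that library it was 1.39 ± 0.21 (adjusted p = 0.000256).

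The A20-binding proteins did not share this course. Tnip1 (ENSMUSG00000020400, chr11:54910785-54962917) encodes ABIN-1, which couples A20 to ubiquitin chains. Its stimulated values were 133, 147, 147, 164, 164, 137, 208, 173, 159 and 123 CPM from 0 min to 48 h, and its untreated values 138, 140.4, 139, 152, 148, 154, 197, 232, 191 and 138 CPM. Both arms were highest at 6 or 12 h. The stimulated value was the lower one at each of the 3 late times.

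Tnip2 (ENSMUSG00000059866, chr5:34496087-34513991) encodes ABIN-2, which binds A20 and also stabilises the kinase TPL2. It stayed between 25.3 and 42.4 CPM in the stimulated arm and between 29.6 and 40.4 CPM in the untreated arm. At 12, 24 and 48 h it was 25.3, 31.1 and 29.2 CPM with the cocktail and 33.2, 38.3 and 35.5 CPM without. Thus each late stimulated library lay below each late untreated one.

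In the late phase both were lower under stimulation. Tnip1 was 1.23-fold lower (log2 fold change -0.30 ± 0.07, edgeR adjusted p = 0.00653) and Tnip2 1.26-fold lower (-0.34 ± 0.09, adjusted p = 0.0139). Neither passed the test in the early or the middle phase, where log2 fold changes lay between -0.14 and 0.10. The Tnip2 call was lost without the 12 h pair (adjusted p = 0.0605) or the 24 h pair (adjusted p = 0.0594). Both late calls were lost with time fitted as a smooth spline (edgeR adjusted p = 0.165 for Tnip1 and 0.128 for Tnip2). They were also lost with no pairing by time (adjusted p = 0.352 and 0.255) and relative to the 0 min pair (adjusted p = 0.415 and 0.335).

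Among the TRAF adaptors, Traf1 had the widest separation between the arms. Traf1 (ENSMUSG00000026875, chr2:34941750-34961772) encodes an adaptor without the RING domain of its relatives that binds TRAF2 and is induced in activated lymphocytes. Its stimulated values were 30.4, 31.5, 32.9, 54.9, 103, 135, 150.5, 112, 131 and 113 CPM from 0 min to 48 h. Its untreated values were 33.1, 30.9, 29.2, 30.5, 29.8, 40.6, 37.8, 46.4, 33.9 and 31.1 CPM. The arms were alike to within 0.17 on the log2 scale up to 30 min, and from 1 h on every stimulated library lay above every untreated library.

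Traf1 was 3.53-fold higher in the middle phase (log2 fold change 1.82 ± 0.16, edgeR adjusted p = 6.63e-05) and 3.2-fold higher in the late phase (1.68 ± 0.16, adjusted p = 1.89e-05). The early difference of 0.33 ± 0.16 did not pass (adjusted p = 0.316). Within the stimulated arm Traf1 rose from a mean of 39.7 ± 13.1 CPM in the early phase to 129.4 ± 24.4 in the middle and 118.6 ± 10.8 in the late phase (SD, n = 3 times each). The untreated means were 30.2 ± 0.912, 36.1 ± 5.63 and 37.1 ± 8.14 CPM.

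Traf3 showed a small difference of 1 direction. Traf3 (ENSMUSG00000021277, chr12:111166370-111267153) encodes the adaptor that recruits NIK for degradation. It was 108, 115, 107, 107, 132, 135, 186, 176, 162 and 127 CPM with the cocktail and 106, 105, 98.7, 104, 124, 124, 141, 149, 139 and 109.9 CPM without. The stimulated value was higher at all 9 times after 0 min, while both arms followed the same hump with its top at 6 to 12 h. The difference was 1.14-fold in the middle phase (log2 fold change 0.19 ± 0.06, edgeR adjusted p = 0.0357) and 1.16-fold in the late phase (0.21 ± 0.06, adjusted p = 0.0117). The middle call was lost without the 3 h pair (adjusted p = 0.0763) or the 6 h pair (0.09 ± 0.05, adjusted p = 0.305), and when only library totals scaled the counts (0.11 ± 0.06, adjusted p = 0.178). Both calls were lost with no pairing by time (adjusted p = 0.667 middle and 0.394 late) and relative to the 0 min pair (adjusted p = 0.522 and 0.272). With a smooth spline of time the middle call was lost (adjusted p = 0.0887) and the late one held (adjusted p = 0.0414).

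Traf2 did not pass the test in any of the 3 phases. Traf2 (ENSMUSG00000026942, chr2:25517982-25546940) encodes the adaptor that brings the inhibitor of apoptosis proteins to tumour necrosis factor receptors. It was 32.3, 31.2, 33.2, 32.9, 40.6, 44.1, 53.4, 39.1, 38.6 and 39.9 CPM with the cocktail and 32.5, 34.0, 31.8, 35.0, 42.2, 45.5, 44.1, 40.3, 36.3 and 36.3 CPM without. The arms crossed repeatedly, and the phase differences lay between -0.07 and 0.05 on the log2 scale.

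Traf5 had a trough at 2 and 3 h in both arms. Traf5 (ENSMUSG00000026637, chr1:191997205-192092559) encodes an adaptor of CD40 and other receptors of that family that is closely related to TRAF3. It was 21.9, 23.7, 22.7, 21.7, 8.44, 9.05, 26.9, 20.6, 20.1 and 22.1 CPM with the cocktail and 24.0, 21.2, 20.7, 17.8, 8.5, 11.1, 16.7, 15.4, 14.5 and 15.8 CPM without. At 2 h it was 2.6-fold below the 0 min level in the stimulated and 2.82-fold below it in the untreated library, single values with no test. By 6 h the stimulated level was back at 26.9 CPM, and the untreated libraries from 6 h on stayed between 14.5 and 16.7 CPM.

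In the late phase Traf5 was 1.36-fold higher under stimulation (log2 fold change 0.45 ± 0.14, edgeR adjusted p = 0.0259), with every late stimulated library above every late untreated one. That call was lost when any 1 of the late times was left out, with adjusted p from 0.0566 (without 12 h) to 0.0912 (without 48 h). Of its exonic length, 4.49% overlaps an antisense gene, and without a stated strand setting those reads cannot be told apart.

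The inhibitor of apoptosis genes were higher under stimulation in the middle and late phases, and in untreated cells each fell in 1 of the comparisons over time. Birc2 (ENSMUSG00000057367, chr9:7818227-7837064) and Birc3 (ENSMUSG00000032000, chr9:7848699-7873186) encode cIAP1 and cIAP2, ubiquitin ligases that TRAF2 recruits. The genes are neighbours on chromosome 9, 11634 bases apart. They are paralogs, and 1.42% of the 50-base stretches of Birc2 and 1.28% of those of Birc3 also occur in the other gene. Of those of Birc3, 7.56% occur in some other gene, most of them (4.19%) in the gene model Gm7019, so its counts are uncertain to that extent.

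Birc2 was 179.7, 177, 164, 148, 134, 109.5, 116, 153, 148 and 218 CPM with the cocktail and 173, 166, 167, 128, 91.1, 80.0, 92.8, 115, 75.9 and 147 CPM without. The 3 h value was below the 0 min value in both arms, further so in the untreated one, and both arms stood higher at 48 h than at 24 h. Birc3 was 230.0, 240.2, 252, 276, 304, 280.4, 348, 301, 271 and 311 CPM with the cocktail and 244, 239, 243, 229.9, 206, 211, 223, 212, 142 and 209 CPM without. From 1 h on each stimulated Birc3 library lay above each untreated library of the series.

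Birc3 was 1.43-fold higher under stimulation in the middle phase (log2 fold change 0.52 ± 0.08, edgeR adjusted p = 0.00174) and 1.58-fold higher in the late phase (0.66 ± 0.08, adjusted p = 0.000123). Birc2 was 1.34-fold higher in the middle phase (0.42 ± 0.09, adjusted p = 0.00892) and 1.56-fold higher in the late phase (0.64 ± 0.09, adjusted p = 0.000298). The middle Birc2 call was lost without the 2 h pair (adjusted p = 0.0576) or the 3 h pair (adjusted p = 0.0615). It was also lost with a smooth spline of time (edgeR adjusted p = 0.195), with no pairing by time (adjusted p = 0.375) and relative to the 0 min pair (adjusted p = 0.382). Relative to the 0 min pair the late Birc2 call (adjusted p = 0.0681) and the middle Birc3 call (adjusted p = 0.128) were lost too, while the late Birc3 call held (adjusted p = 0.0184). Early differences were 0.09 for Birc3 and 0.07 for Birc2, and neither passed.

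Within the untreated arm Birc2 fell 1.77-fold from the early to the middle phase (log2 fold change -0.82 ± 0.20, edgeR adjusted p = 0.00935). From early to late its change was -0.44 ± 0.20 (adjusted p = 0.0779), with 147 CPM at 48 h. Untreated Birc3 fell 1.26-fold from the early to the late phase (-0.33 ± 0.12, adjusted p = 0.042). Without the untreated 24 h library, its lowest value at 142 CPM, the Birc3 change was -0.17 ± 0.10 (adjusted p = 0.197), and leaving out any of the 3 early untreated libraries also lost this call (adjusted p from 0.0632 to 0.114). In the stimulated arm Birc3 gave 0.26 ± 0.12 from early to middle (adjusted p = 0.101) and 0.23 ± 0.12 from early to late (adjusted p = 0.126).

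Map3k14 (ENSMUSG00000020941, chr11:103219762-103267472) encodes NIK and had the lowest median level per length of the group. It was 8.73, 9.73, 11.1, 12.1, 27.2, 28.7, 22.0, 20.1, 29.2 and 23.5 CPM with the cocktail and 8.17, 7.27, 7.41, 7.52, 12.5, 10.8, 11.6, 16.9, 13.8 and 10.3 CPM without. The stimulated value was the higher one at every time, and the gap was narrowest at 0 and 12 h. The main step in the stimulated arm lay between 1 and 2 h.

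Map3k14 was 2.19-fold higher under stimulation in the middle phase (log2 fold change 1.13 ± 0.16, edgeR adjusted p = 0.00104) and 1.77-fold higher in the late phase (0.83 ± 0.16, adjusted p = 0.00225). Both calls held with no pairing by time (adjusted p = 0.00298 and 0.00477). Relative to the 0 min pair both were lost (1.06 ± 0.33, adjusted p = 0.203, and 0.77 ± 0.33, adjusted p = 0.204). The early difference of 0.54 ± 0.17 did not pass (adjusted p = 0.123). It rose with time in both arms. From early to late the log2 fold change was 1.18 ± 0.18 with the cocktail (adjusted p = 0.000105) and 0.89 ± 0.18 without (adjusted p = 0.00174). From early to middle it was 1.22 ± 0.18 with the cocktail (adjusted p = 0.00021) and 0.63 ± 0.18 without (adjusted p = 0.019), and the untreated early to middle call was lost without the 15 min or the 30 min library (adjusted p = 0.0587 and 0.063).

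**Figure D2:**
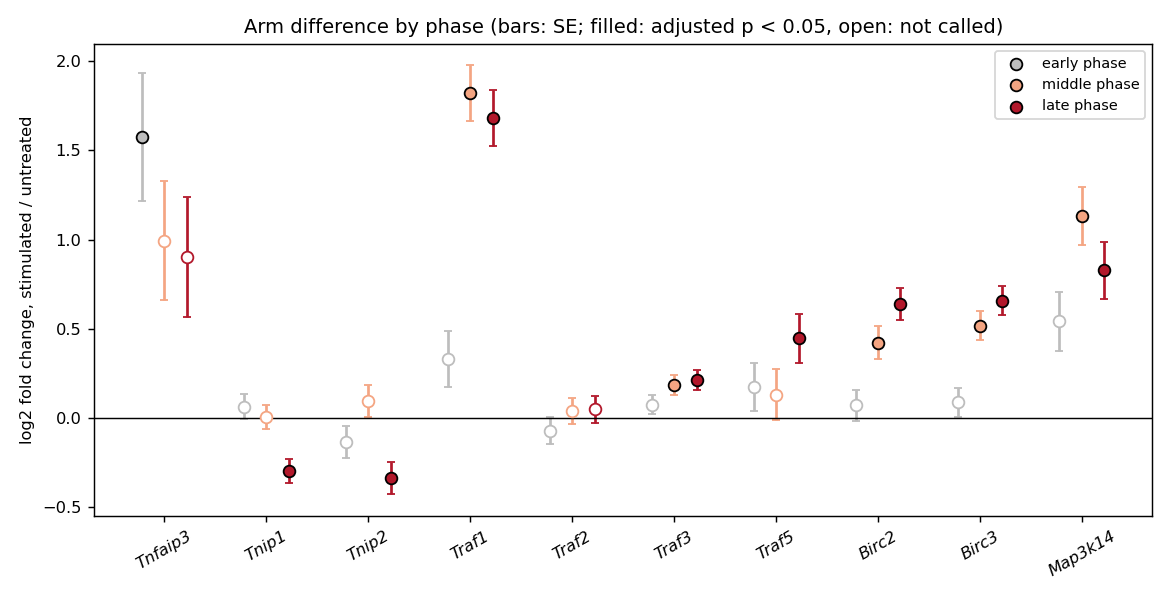
Log2 fold change of stimulated over untreated for each gene in the early, middle and late phase, with bars of 1 SE from edgeR over 3 time pairs; the symbols tell changes past the adjusted threshold of 0.05 from the others. Tnfaip3 led in the early phase at 1.58, Traf1 in the middle and late phases at 1.82 and 1.68, and Tnip1 and Tnip2 lay below 0 in the late phase.

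Counted over the group, 1 of the 10 members was higher under stimulation and 0 lower in the early phase, where 0.598% of all tested genes were higher and 1.64% lower. In the middle phase 5 were higher and 0 lower, against 10.2% and 10.3% of all genes. In the late phase 6 were higher and 2 lower, against 17.8% and 18.3%. The median log2 fold change of the members was 0.08 early, 0.30 in the middle phase and 0.54 late, beside 0.009, 0.005 and -0.004 over all tested genes. With differences taken relative to the 0 min pair, 0 members passed early, 1 in the middle phase and 2 late, beside 0, 43 and 847 genes in all, where the fit above called 270, 2463 and 4351. In a fit with lane and a smooth spline of time, 1 member passed in the middle phase and 1 late, each time Traf1 (1.90 ± 0.31, adjusted p = 0.0389, and 1.74 ± 0.31, adjusted p = 0.021), beside 21 and 185 genes in all.

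The arms did not overlap for 5 members early, 5 in the middle phase and 7 late, of which 1, Tnip2, lay below. Over all genes the stimulated libraries lay above the untreated ones for 14.6% of genes early, 9.57% in the middle phase and 12.1% late, and below them for 6.52%, 6.81% and 12.3%. Summed B cell markers were 1740 to 1940 CPM in the late stimulated libraries and 2310 to 2400 CPM in the late untreated ones. Summed dendritic cell markers were 35.5 to 65.1 CPM against 18.4 to 21.8 CPM, with Flt3 (up to 32.2 CPM) and Zbtb46 (up to 37.0 CPM) as the most abundant and 3 of 7, Itgax among them, below 1 CPM in every library. Late summed macrophage and monocyte markers were 47.4 to 95.8 CPM against 24.9 to 38.3 CPM. The part of these markers in the late differences was not tested, and in bulk RNA fewer cells of a type cannot be told apart from less RNA per cell.

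The arm difference grew from the early to the late phase for 3 members. The late minus early difference, tested as an interaction, was 1.35 ± 0.22 on the log2 scale for Traf1 (edgeR adjusted p = 0.0018), 0.57 ± 0.11 for Birc3 (adjusted p = 0.00563) and 0.57 ± 0.13 for Birc2 (adjusted p = 0.0102). For Tnip1 it was -0.36 ± 0.10 (adjusted p = 0.0258). Thus 3 members gained and 1 lost, where 10.2% and 9.52% of all genes did so. Tnfaip3 had a difference of -0.67 ± 0.49 that did not pass (adjusted p = 0.369). It was 0.02 ± 0.28 without the 1 h pair and -1.28 ± 0.39 without the 15 min pair (adjusted p = 0.973 and 0.0611). A fit with no filter on low counts passed it (-0.66 ± 0.10, adjusted p = 5.78e-10). The SE of that fit understates the spread between times, as the early log2 ratios ran from 0.43 at 15 min to 2.96 at 1 h. That pass is thus not taken as a call. Map3k14 gave 0.28 ± 0.23 (adjusted p = 0.423). The Birc2 call was lost without the 30 min pair (adjusted p = 0.0533), and that of Tnip1 without any 1 early or late time other than 48 h (adjusted p from 0.0646 to 0.084). Map3k14 passed without the 12 h pair (0.59 ± 0.15, adjusted p = 0.023).

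With sequencing lane as a further term, which can be fitted for this interaction, the difference was 1.25 ± 0.23 for Traf1 (adjusted p = 0.00804), 0.54 ± 0.13 for Birc3 (adjusted p = 0.0213), 0.59 ± 0.14 for Birc2 (adjusted p = 0.0227) and -0.32 ± 0.10 for Tnip1 (adjusted p = 0.0766). Between the middle and the late phase 0 members passed by edgeR, against 3.55% of genes with a higher and 3.19% with a lower late difference. An unadjusted p under 0.05 was found for 2 members (Tnip1 and Tnip2), beside 22.8% of all genes, and DESeq2 called 1 member (Tnip2), beside 1090 genes. Without the 6 h pair, Tnip2 (-0.55 ± 0.11, adjusted p = 0.0118) and Traf5 (0.63 ± 0.13, adjusted p = 0.0112) passed.

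Both arms also changed with time on their own. In the stimulated arm 4 members rose from the early to the middle phase and 0 fell, namely Traf1, Map3k14, Traf2 and Traf3, where 22.1% of all genes rose and 19.3% fell. The same 4 members were higher in the late than in the early phase and 0 were lower, against 29.2% and 25.7% of all genes. Traf2 rose by 0.48 ± 0.09 to the middle phase (edgeR adjusted p = 0.00133) and Traf3 by 0.53 ± 0.14 to the late phase (adjusted p = 0.00584). Traf3 lost its middle call without the stimulated 30 min (adjusted p = 0.0564), 1 h (adjusted p = 0.0588) or 6 h library (adjusted p = 0.134), and Traf2 its late call without the 15 min library (adjusted p = 0.0702). Without the 6 h library, Traf5 fell from early to middle by 1.40 ± 0.21 on the log2 scale (adjusted p = 0.000371), against -0.64 ± 0.33 with it (adjusted p = 0.133). Without the stimulated 1 h library, Tnfaip3 rose to the middle phase by 1.19 ± 0.21 (adjusted p = 0.00118), against 0.10 ± 0.41 with it (adjusted p = 0.857).

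In the untreated arm Map3k14 and Traf2 rose and Birc2 fell from the early to the middle phase, 2 and 1 of the 10 members, where 13.6% of all genes rose and 11.9% fell. From early to late Tnfaip3, Map3k14 and Traf3 rose and Birc3 fell, 3 and 1 members, where 22.6% rose and 20% fell. Untreated Traf2 rose by 0.37 ± 0.09 (edgeR adjusted p = 0.0121) and untreated Traf3 by 0.38 ± 0.14 (adjusted p = 0.0427). The Traf2 call was lost without the 30 min (adjusted p = 0.0618) or 3 h library (adjusted p = 0.0564), and the Traf3 call without any 1 of the 15 min, 30 min, 1 h, 12 h and 24 h libraries (adjusted p from 0.0819 to 0.153). Without the untreated 48 h library, Birc2 was lower (-0.68 ± 0.19, adjusted p = 0.0111) and Tnip1 higher (0.57 ± 0.17, adjusted p = 0.0164) in the late than in the early phase.

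**Figure D3:**
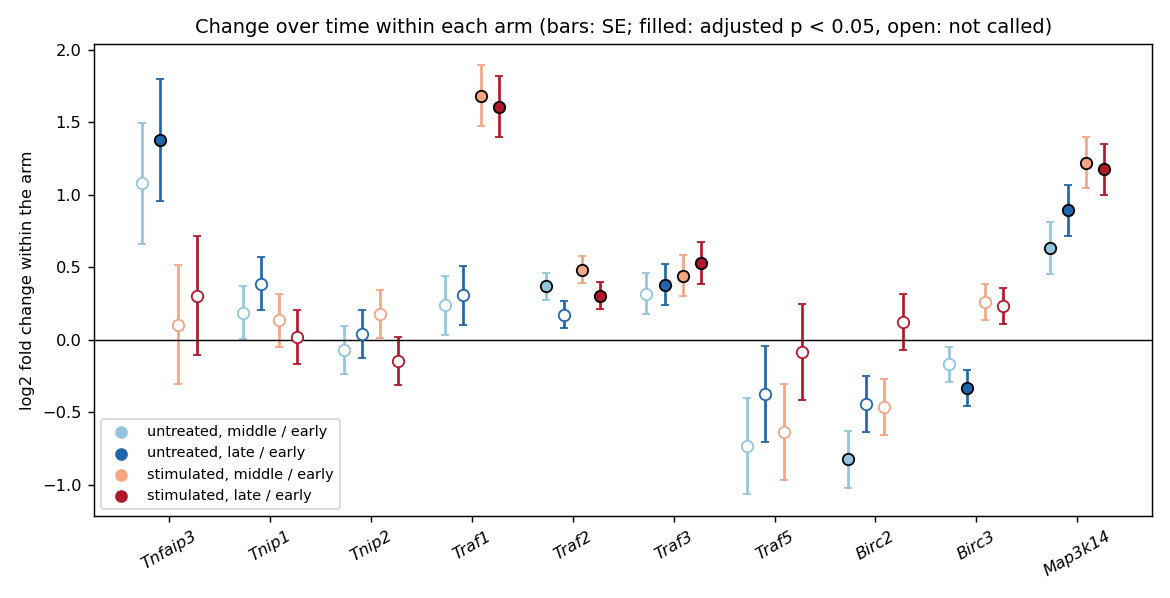
Log2 fold change from the early to the middle and from the early to the late phase within the stimulated and within the untreated arm for each gene, with bars of 1 SE from edgeR. Traf1 rose in the stimulated arm by 1.68 and 1.61, Map3k14 rose in both arms, and Birc2 fell to the middle phase in the untreated arm.

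By the median level per length over the times, the inhibitor of apoptosis genes and Tnip1 ranked highest. Median CPM per kilobase of exon over the 10 times was 55.5 with the cocktail and 43.5 without for Birc3, 43.2 and 42.4 for Tnip1, and 33.0 and 26.5 for Birc2. Tnfaip3 had a median level of 31.3 CPM per kilobase with the cocktail and 12.9 without, and Traf1 of 12.2 and 3.64. The order differed at single times, as Tnfaip3 at 1 h, at 57.1 CPM per kilobase with the cocktail, lay above the highest Birc2 value of 47.6. Map3k14 was lowest at 3.21 and 1.61, below Traf5 at 4.77 and 3.57. Traf1 thus ranked above Tnip2 (11.8 CPM per kilobase) and Traf2 (7.62) with the cocktail but below both without it, where they had 12.8 and 7.12. The stimulated medians of Traf1 and Tnip2 lay closer together than the values of either gene spread over the times.

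Other genes of the pathway were read from 5 lists of NF-kB components, written with earlier results of these data known. Of all tested genes 0.598% were higher and 1.64% lower early, 10.2% and 10.3% in the middle phase, and 17.8% and 18.3% late. Of the non-canonical list (Nfkb2, Relb, Chuk and the receptors and ligands of that branch), 6 of 10 genes were tested, with 4 higher and 0 lower under stimulation in both the middle and the late phase and 0 in the early phase. Nfkb2, the precursor that NIK signalling processes to p52, was higher by a log2 fold change of 0.73 ± 0.10 in the middle phase (edgeR adjusted p = 0.000837) and 1.53 ± 0.10 in the late phase (adjusted p = 4.29e-06), and was at 249 CPM with the cocktail and 81.9 without at 48 h. Cd40, a receptor that signals through TRAF3, was higher by 1.04 ± 0.11 in the middle phase (adjusted p = 0.000162) and 0.93 ± 0.11 late (adjusted p = 7.13e-05). Relb, the partner of p52, was higher by 0.60 ± 0.09 late (adjusted p = 0.000494), and Tnfrsf13c, the BAFF receptor, by 0.67 ± 0.09 in the middle phase (adjusted p = 0.000574). Late untreated Relb lay below its 0 min level, at 44.0 to 50.6 CPM against 68.9. Late stimulated Relb, at 57.9 to 88.3 CPM, lay on both sides of its 0 min level of 67.0.

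Of the receptor list, which shares some genes with the non-canonical one, 11 of 16 were tested, with 0 called early, 6 higher and 0 lower in the middle phase and 7 higher and 1 lower late. The late differences between the arms were widest for Fas, a death receptor (3.65 ± 0.31, edgeR adjusted p = 1.11e-05), and Tnfrsf4, which encodes OX40 (3.06 ± 0.51, adjusted p = 0.000893). Next came Tnfrsf8, which encodes CD30 (1.96 ± 0.25, adjusted p = 0.000151). Each of these genes was lower late than at 0 min in the untreated arm. Untreated Fas was at 25.9 CPM at 0 min and 2.74 to 7.95 late, stimulated Fas at 25.1 and 40.6 to 100. For Tnfrsf4 these values were 3.55 and 1.39 to 2.25 untreated, 4.62 and 4.27 to 61.9 stimulated. For Tnfrsf8 they were 6.56 and 1.89 to 3.11 untreated, 6.59 and 5.36 to 15.9 stimulated. Tlr4, the LPS receptor, was lower late (-1.18 ± 0.25, adjusted p = 0.00356). Of the list of NF-kB subunits and IkB inhibitors all 11 were tested, with 1 higher early, 6 in the middle phase and 7 late, and 0 lower. Each called gene of the non-canonical list is counted again, Nfkb2 and Relb here and Cd40 and Tnfrsf13c among the receptors. The counts and medians of these lists are thus not separate observations. The early one was Nfkbiz, a nuclear IkB (1.04 ± 0.24, adjusted p = 0.0482), and Nfkbia, the inhibitor IkB alpha, was higher by 1.37 ± 0.28 in the middle phase (adjusted p = 0.00721).

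Of the ubiquitin list (linear chain assembly, deubiquitinases and other ligases) 20 of 22 genes were tested, with 0 called early, 5 higher and 2 lower in the middle phase and 7 higher and 2 lower late. Otulin, which cleaves linear ubiquitin chains, was higher by 0.44 ± 0.08 in the middle phase (edgeR adjusted p = 0.00392) and 0.71 ± 0.08 late (adjusted p = 6.42e-05), at 69.2 CPM against 36.9 at 48 h. Traf6, the adaptor of Toll-like receptors, was higher by 0.32 in the middle phase (adjusted p = 0.000991). By 6 h it had fallen in both arms, from 106 CPM at 0 min to 70.3 with the cocktail and from 105 to 57.7 without. The linear chain ligase genes Rbck1 (-0.22 ± 0.05, adjusted p = 0.00786) and Rnf31 (-0.20 ± 0.07, adjusted p = 0.0428) were lower late, and Sharpin was lower in the middle phase (-0.28 ± 0.08, adjusted p = 0.0231).

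Of the list of kinases and Toll-like receptor adaptors all 20 were tested, with 0 higher and 1 lower early, 4 higher and 2 lower in the middle phase and 4 higher and 4 lower late. The late counts of this list were near the shares over all genes, 17.8% higher and 18.3% lower. Tank, which binds TRAF proteins and the kinase TBK1, was higher by 0.57 ± 0.07 in the middle phase (edgeR adjusted p = 0.00045) and 0.70 ± 0.07 late (adjusted p = 3.08e-05). Its level fell in both arms, further in the untreated one. From 152 CPM at 0 min stimulated Tank went to 125 to 130 in the middle phase, and untreated Tank from 146 to 79.4 to 88.0. Myd88, the main adaptor of Toll-like receptors, was higher by 0.65 ± 0.08 in the middle phase (adjusted p = 0.000592), while of the adaptors of the TRIF branch Ticam1 was lower late (-0.51 ± 0.09, adjusted p = 0.0014) and Ticam2 higher (0.36 ± 0.08, adjusted p = 0.00532). Irak2, a kinase downstream of MYD88, was lower late (-0.71 ± 0.09, adjusted p = 0.000123). List medians in the late phase were 0.53 for the non-canonical list, 0.63 for the receptors, 0.56 for subunits and IkBs, 0.11 for ubiquitin and -0.03 for kinases.

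**Figure D4:**
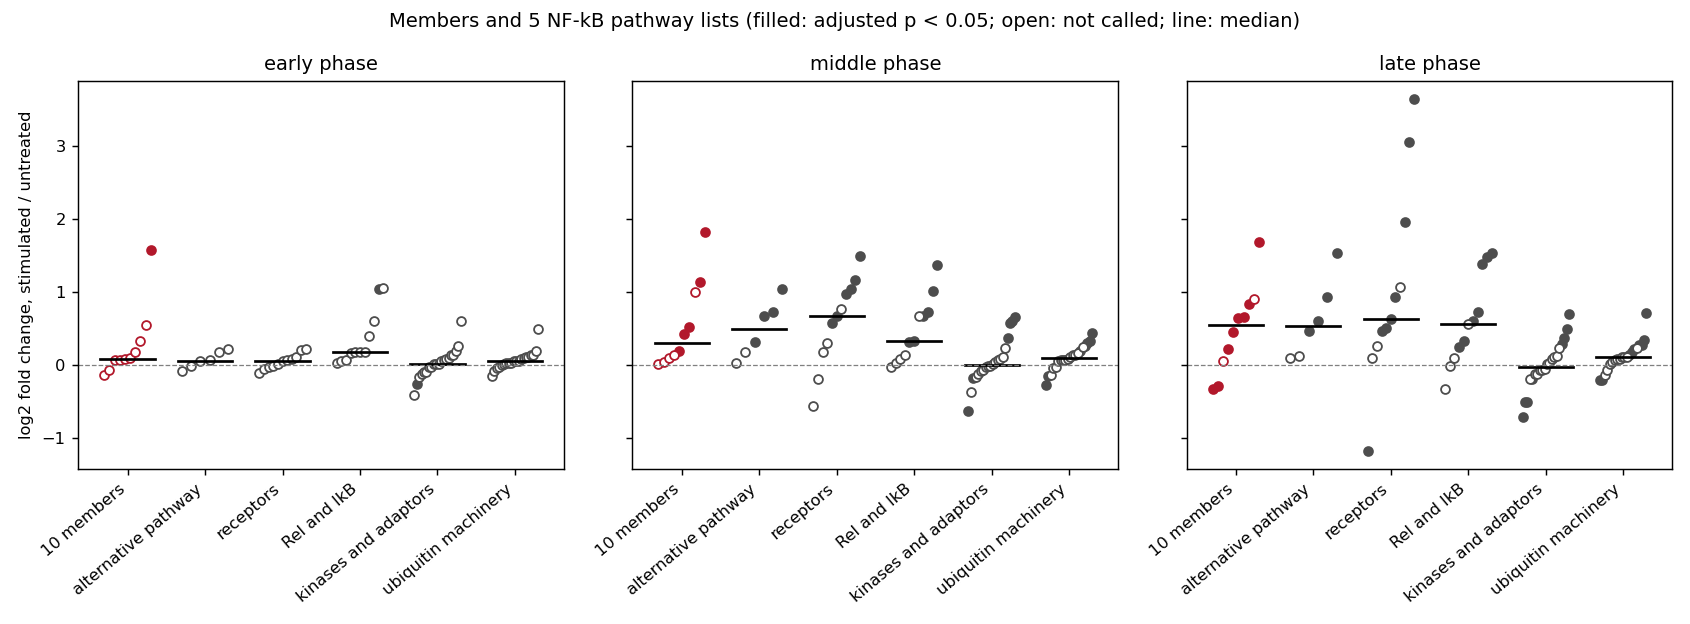
Log2 fold change of stimulated over untreated in the early, middle and late phase for the 10 members and the genes of the 5 NF-kB lists (the non-canonical list is the alternative pathway), with lines at the medians and filled points for genes past the adjusted threshold of 0.05. Late medians were 0.53 for the non-canonical and 0.63 for the receptor list and 0.11 and -0.03 for the ubiquitin and kinase lists.

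Tnfaip3, Traf1 and Map3k14 varied most over the 20 libraries, with SDs of 0.889, 0.888 and 0.658 on the log2 scale. Likeness to other genes was measured as the root-mean-square difference between log2 profiles centred on their means over the 20 libraries, among 9060 genes. The profiles nearest to Tnfaip3 were Nfkbia at 0.43, Gadd45b at 0.433 and Tagap at 0.438. Nfkbia was likewise high in the 1 h stimulated library, at 571 CPM against 139 untreated. Nearest to Traf1 were Stat5a at 0.24, Ifngr2 at 0.242 and Ccl22 at 0.246, and nearest to Map3k14 were Fnbp1l at 0.253, St3gal1 at 0.282 and Nrp2 at 0.285. These distances compare with the members' own root-mean-square departure from a flat profile of 0.867 for Tnfaip3, 0.865 for Traf1 and 0.641 for Map3k14, so the likeness was closest in proportion for Traf1.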

How the data were processed

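Poly-A messenger RNA (TruSeq) was measured in 20 libraries. The authors deposited counts per gene, 1 table per library, for which the submitters' processing notes name STAR, HTSeq and the build GRCm38.p3 (mm10). Tool versions and strand setting: not given in the sources used here.

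Counts were analysed with edgeR 4.0.16 in R 4.3.3 (TMM scaling, quasi-likelihood F-test, Benjamini-Hochberg adjustment over all genes tested, threshold 0.05) for genes that reached 1 CPM in 3 or more libraries. This left 12042 genes over the 18 later libraries and 12139 over all 20. Arms were paired by time, and change within an arm was tested over all 20 libraries. The SE was the size of the log2 fold change divided by the square root of F. Ratios at single times used a pseudocount of 0.5 CPM and have no test. The floor of 3 counts covers counting error only, while the SE of the main fit also holds the spread between times. The fits were tested on simulated data.

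Gene positions came from GENCODE vM21 (GRCm38) and promoters from RefSeq (GRCm38.p6), which held 12 promoters for the 10 members. Members and lists were chosen with earlier results of these data known. All members are named, and of each list up to 3 genes per phase and direction with the largest change past the threshold, from which the text gives a selection. Alternatives were RLE size factors, library totals, DESeq2 1.42.0, other filters (none, or at least 5 CPM), each time left out, lane, no pairing by time, a pseudocount of 2 CPM and differences relative to 0 min. A spline of time, with and without lane, was added after the data had been seen.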

Additional observations from a re-analysis of the deposited data

Results flagged for a closer look

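The courses of the 10 genes in each arm were examined for a single value far from the rest (by the gap to its nearest value as a share of the whole range, Dixon's test for 10 values), which chance flags in about 1 of 20 groups. These values are times of a course, not replicates. Stimulated Tnfaip3 stood apart at 412.4 CPM at 1 h, with a gap of 0.478 of its range. Untreated Birc3 stood apart at 142.3 CPM at 24 h, with a gap of 0.631 of its range.

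The arm difference of 4 members differed between the late and the early phase by edgeR's interaction test. On the log2 scale the late minus early difference was 1.35 for Traf1 (adjusted p = 0.0018), 0.57 for Birc2 (adjusted p = 0.0102), 0.57 for Birc3 (adjusted p = 0.00563) and -0.36 for Tnip1 (adjusted p = 0.0258).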

How the results depend on the processing

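No alternative run reversed the direction of a member that had passed the test. The early count of 1 member became 2 with DESeq2, 3 with no filter, and 0 with at least 5 CPM, with a spline of time and lane, with no time pairing, or relative to the 0 min pair, while the genes called in all went from 270 to 426, 747, 273, 0, 5 and 0. The middle count of 5 became 1 with a spline of time and lane, 3 with no time pairing and 1 relative to the 0 min pair (genes in all from 2463 to 21, 250 and 43). The late count of 8 became 5 with a spline of time, 1 with a spline of time and lane, 4 with no time pairing and 2 relative to the 0 min pair (genes in all from 4351 to 2331, 185, 1475 and 847). The late minus early count of 4 became 1 with no time pairing (genes in all from 2377 to 428). The late minus middle count of 0 became 1 with DESeq2 and 1 with no filter, and the untreated late count of 4 became 2 with no filter. The cause of these shifts was not tested. With no filter the SE of the early Tnfaip3 difference was 0.07, against 0.36 in the main fit. Leaving out 1 time gave 0 to 1 members early, 3 to 4 in the middle phase, 6 to 7 late, 2 to 4 late minus early and 0 to 2 late minus middle. Leaving out 1 library gave 3 to 4 (stimulated middle), 3 to 5 (stimulated late), 1 to 3 (untreated middle) and 1 to 6 (untreated late). Traf1 passed under every alternative run in the middle phase (adjusted p up to 0.0389), late (up to 0.021) and late minus early (up to 0.0184). Lane with time as a factor could not be fitted within a phase. With library totals as the only scaling the median log2 fold change of all genes was -0.136 in the stimulated middle and -0.135 in the stimulated late comparison with the early phase. In the main fit these medians were -0.002 and 0.008. In the former comparison Birc2 then passed as lower and Traf3 no longer passed, and in the latter Traf2 no longer passed. The spline alternatives were chosen after seeing the data. The labels carry no replicate numbers, so the only pairing of the arms was by time.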
